A study of Mus musculus with 11 samples.

Results

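Toll-like receptors are membrane proteins of innate immune cells that bind microbial products and products of damaged tissue. The genes described here are 8 receptors, Tlr1, Tlr2, Tlr3, Tlr4, Tlr7, Tlr8, Tlr9 and Tlr13, with the adaptor Myd88 and the co-receptor Cd14. They were chosen by symbol from the 25006 genes counted, and all 10 passed the filter on low counts, as did 14779 genes in all. TLR1, TLR2 and TLR4 sense lipopeptides and lipopolysaccharide at the cell surface, while TLR3, TLR7, TLR8, TLR9 and TLR13 sense nucleic acids in endosomes. Most of them signal through MYD88 to NF-kB and to interferon regulatory factors, and TLR3 signals through another adaptor, TICAM1. In the infarcted heart this pathway is known for driving the early inflammatory response to dying cells.

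RNA was taken from the left ventricle (LV) of 11 mice, 1 library per mouse. The naive groups were 2 control mice (M44 and M45) and 3 mice with Vegfc deleted in myeloid cells (M149, M150 and M34). The groups with myocardial infarction (MI), collected 9 days after permanent ligation of the coronary artery, were 3 control mice (M006, M38 and M40) and 3 Vegfc-deficient mice (M35, M900 and M913). Every Vegfc-deficient mouse is labelled Vegfc fl/fl with LysMCre, a Cre inserted in the lysozyme gene Lyz2 that is active in macrophages, monocytes and neutrophils. The control mice are labelled Vegfc fl/fl without Cre, and the legend of the study's RNA-seq figure also names Vegfc fl/fl mice among the controls. The protocol and the study's methods call them LysMCre mice, so whether they carry Cre or the floxed allele cannot be told from these sources. The ages and sexes of the mice are not given in the labels. The MI libraries are from infarcted tissue and the naive ones from LV of like mass and position.

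Total counts were 10824989 to 14585642 in the naive libraries and 14580756 to 26782728 in the MI libraries. A floor of 3 counts equalled 0.101 to 0.363 CPM, the counts scaled by library size and TMM factors, where the floor stands for counting error only. Lyz2 lay at 2121 and 2282 CPM in the naive control libraries and at 72.5 and 245 CPM in naive Vegfc-deficient M150 and M34. The third library with that label, M149, had 4565 CPM, unlike M150 and M34. The labels do not give the number of Cre alleles, so whether M149 carries the wrong label cannot be told. After MI Lyz2 was at 4538 to 5380 CPM in control and 12.4 to 1392 CPM in Vegfc-deficient hearts, highest in M35. Vegfc itself ran from 21.9 to 45.5 CPM and did not separate the genotypes. Xist, which is expressed from an inactive X chromosome, had 0.624 to 11.8 CPM in naive and 188 to 403 CPM in MI hearts, and 4 Y-linked genes summed to 152 to 195 CPM in naive and 1.84 CPM or less in MI hearts. These are the levels of male mice in the naive and of female mice in the MI groups. Sex and MI therefore cannot be told apart for any gene, whether sex-linked or autosomal. The cardiomyocyte markers Myh6, Tnnt2, Actn2 and Ryr2 summed to 18020 to 23554 CPM in the naive and 1131 to 6518 CPM in the MI libraries, and lung epithelial markers were at or near 0 throughout.

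On GRCm38, Tlr7 and Tlr8 are neighbours on the X chromosome, at 167304929 to 167330558 and 167242696 to 167264329 on the minus strand, and Tlr13 lies on the same chromosome at 106143204 to 106160493. Tlr9 (chromosome 9, 106222598 to 106226883) and Myd88 (chromosome 9, 119335934 to 119341411) share a chromosome. Tlr1 is on chromosome 5 (64924679 to 64933563), Tlr2 on chromosome 3 (83836272 to 83841767), Tlr3 on chromosome 8 (45395665 to 45411080) and Tlr4 on chromosome 4 (66827584 to 66930284). Of the 50-base stretches of Tlr1 exons, 15.4% occur also in another transcript, most of them in its near relative Tlr6. Whether reads from these stretches were counted, and for which gene, is uncertain. Exons of Myd88 overlap those of Acaa1a on the opposite strand over 290 bases, and those of Tlr3 overlap an antisense transcript over 381 bases.

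The promoters of the genes called higher after MI in both genotypes (Tlr1, Tlr2, Tlr9 and Myd88) are shown because these 4 rose in each. The windows run from 250 bases before to 50 bases after the start of the transcript (RefSeq, GRCm38.p6). Windows of 7 of the 10 genes were searched, and none of Tlr4, Tlr7 or Cd14. Capitals mark a match on either strand to the NF-kB consensus, to the PU.1 core GAGGAAGT or to the interferon-stimulated response element GAAANNGAAA, and each window held at most 1 match.
Tlr2, chr3:83841559-83841858, minus strand: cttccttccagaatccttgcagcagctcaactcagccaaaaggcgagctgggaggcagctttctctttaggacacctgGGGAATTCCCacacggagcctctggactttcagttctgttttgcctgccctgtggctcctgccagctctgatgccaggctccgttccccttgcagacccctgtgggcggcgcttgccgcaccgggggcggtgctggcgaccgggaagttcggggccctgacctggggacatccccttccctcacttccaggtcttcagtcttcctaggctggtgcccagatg
Tlr1, chr5:64933509-64933808, minus strand: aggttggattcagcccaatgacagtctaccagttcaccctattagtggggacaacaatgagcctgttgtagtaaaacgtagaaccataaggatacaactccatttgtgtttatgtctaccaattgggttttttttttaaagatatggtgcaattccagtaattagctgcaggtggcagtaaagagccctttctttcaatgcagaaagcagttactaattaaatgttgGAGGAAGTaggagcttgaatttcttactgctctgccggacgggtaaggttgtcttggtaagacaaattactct
Tlr9, chr9:106222348-106222647, plus strand: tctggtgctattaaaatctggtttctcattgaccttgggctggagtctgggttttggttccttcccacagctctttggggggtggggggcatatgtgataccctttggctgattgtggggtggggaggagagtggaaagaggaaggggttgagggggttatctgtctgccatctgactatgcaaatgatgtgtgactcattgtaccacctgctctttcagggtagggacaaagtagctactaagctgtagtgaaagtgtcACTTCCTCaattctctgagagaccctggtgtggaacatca
Myd88, chr9:119339969-119340268, minus strand: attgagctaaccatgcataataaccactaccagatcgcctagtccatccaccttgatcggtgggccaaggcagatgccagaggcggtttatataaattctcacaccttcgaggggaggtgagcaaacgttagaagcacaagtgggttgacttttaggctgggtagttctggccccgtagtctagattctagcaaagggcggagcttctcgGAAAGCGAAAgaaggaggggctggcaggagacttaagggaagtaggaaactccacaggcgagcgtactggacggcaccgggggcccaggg
Tlr2 held a palindromic NF-kB match, Tlr1 and Tlr9 a PU.1 core each (in Tlr9 on the opposite strand) and Myd88 the interferon element. Tlr3 also held an NF-kB match, while Tlr8, Tlr13 and the second window of Tlr1 held none of these motifs. Over all 32851 windows of this length, 5.8% held the NF-kB consensus, 3.2% the PU.1 core and 3.44% the interferon element. A match is a description of these letters and not a binding site.

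Per kilobase of exon, Cd14 was the most abundant and Tlr9 the least abundant of the 10 genes in all 4 groups. In MI control hearts the mean level was 72.0 ± 33.7 CPM per kilobase for Cd14 (SD, n = 3), which binds lipopolysaccharide and passes it to TLR4. Tlr13, a sensor of bacterial ribosomal RNA, followed at 25 ± 7.90, Tlr2 at 21.1 ± 3.74, Myd88 at 20.7 ± 3.41 and Tlr7 at 14.9 ± 3.17 CPM per kilobase (SD, n = 3 each). Tlr13, Tlr2 and Myd88 overlapped, so their order was not separated from the spread, and Tlr7 overlapped with Tlr13 alone of these. Tlr4 was at 6.56 ± 1.37, Tlr1 at 6.08 ± 2.98, Tlr3 at 5.61 ± 1.55, Tlr8 at 5.53 ± 2.16 and Tlr9 at 1.2 ± 0.809 CPM per kilobase (SD, n = 3 each), with overlap among the first 4. The MI Vegfc-deficient hearts had Cd14 at 62.0 ± 17.5, then Tlr2 at 23.0 ± 3.53, Tlr13 at 22.2 ± 7.5, Myd88 at 22.1 ± 4.68 and Tlr7 at 11.5 ± 1.92 CPM per kilobase (SD, n = 3 each). In naive control hearts the order was different below Cd14 (38.8 ± 6.64 CPM per kilobase, SD, n = 2). Myd88 stood at 12.5 ± 2.80 and Tlr13 at 8.38 ± 0.773, while Tlr7 (6.45 ± 0.679), Tlr2 (5.97 ± 0.109) and Tlr8 (5.96 ± 1.21) overlapped, all in CPM per kilobase (SD, n = 2). In naive Vegfc-deficient hearts Cd14 was at 28.7 ± 7.37, Myd88 at 12.4 ± 2.56 and Tlr7 at 11.9 ± 3.0 CPM per kilobase (SD, n = 3 each), and Tlr13 (8.88 ± 8.23) and Tlr8 (5.66 ± 6.89) had an SD near or above their mean. Tlr2 thus stood beside Tlr8 in naive control hearts and above it in every MI library.

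**Figure D1:**
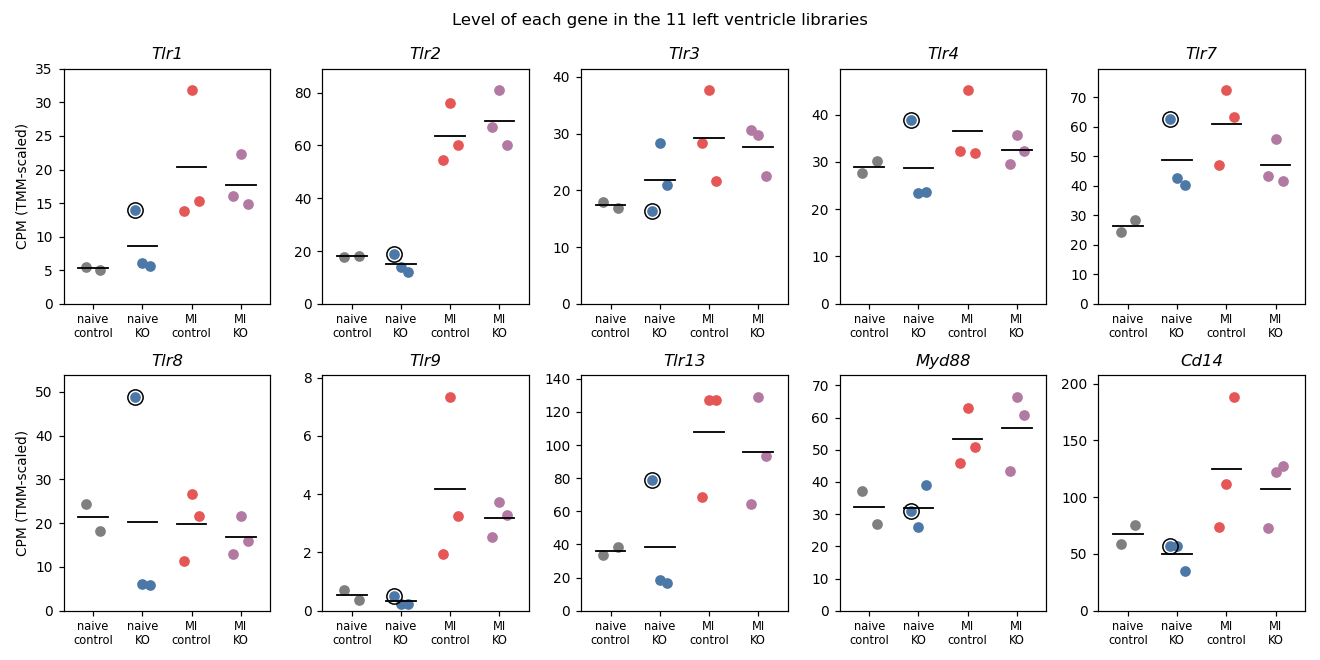
Each panel plots 1 gene, with the level in CPM on the y axis (from 0) and the 4 groups on the x axis, where KO is Vegfc-deficient. Points are libraries, bars are group means and the ringed point is the library labelled naive Vegfc-deficient M149, which stands far above M150 and M34 in Tlr8 (48.8 CPM against 6.17 and 5.94) and Tlr13 (79.1 CPM against 18.5 and 17.0).

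The receptors that bind lipopeptides (Tlr1, Tlr2), the DNA sensor Tlr9 and the adaptor Myd88 were higher in infarcted than in naive myocardium of both genotypes, while Tlr4, Tlr8 and Tlr13 passed the test in neither. Of these calls, Tlr1 in both genotypes and Myd88 in control mice were lost when single libraries were left out. In control mice 6 of 10 genes were higher after MI (Tlr1, Tlr2, Tlr3, Tlr7, Tlr9 and Myd88) and 0 were lower, where 26.3% of all genes tested were higher and 24.1% lower. In Vegfc-deficient mice 5 of 10 were higher (Tlr1, Tlr2, Tlr9, Myd88 and Cd14) and 0 were lower, where 30.0% of all genes were higher and 27.7% lower. The median log2 fold change of the 10 genes was 1.05 in control and 0.94 in Vegfc-deficient mice, against 0.13 and 0.097 over all genes tested. Calls are adjusted p-values under 0.05 from the quasi-likelihood test of edgeR, adjusted over all 14779 genes by the Benjamini-Hochberg method. Whole-tissue counts cannot tell more RNA per cell from more cells of a type. Nor can the change of any gene with MI be told apart here from the difference of sex between the naive and MI mice.

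Tlr2, which pairs with TLR1 or TLR6 to bind lipopeptides, had the smallest p of the 10 in both genotypes. It was at 17.7 and 18.2 CPM in naive control M44 and M45 and at 54.3, 76.1 and 60.3 CPM in MI control M006, M38 and M40. It was at 18.7, 14.04 and 11.96 CPM in naive Vegfc-deficient M149, M150 and M34 and at 66.9, 81.0 and 60.2 CPM in MI Vegfc-deficient M35, M900 and M913. Every MI library lay above every naive library by a wide margin. The log2 fold change was 1.82 in control (standard error 0.22, adjusted p = 3.02e-04) and 2.22 in Vegfc-deficient mice (standard error 0.20, adjusted p = 3.97e-05), both by edgeR.

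Tlr1, the partner of TLR2 for triacylated lipopeptides, was at 5.44 and 5.07 CPM in naive control and 13.9, 31.9 and 15.3 CPM in MI control hearts. It was at 13.9, 6.05 and 5.70 CPM in naive and 16.0, 22.3 and 14.9 CPM in MI Vegfc-deficient hearts. The library labelled M149 reached the level of the lowest MI control library, whereas the other naive libraries stayed below all 6 MI libraries. Its log2 fold change was 1.95 in control (standard error 0.48, adjusted p = 0.00712) and 1.05 in Vegfc-deficient mice (standard error 0.40, adjusted p = 0.0435), both by edgeR, and the latter was 1.59 without M149 (adjusted p = 0.0059). Leaving out any of 7 other libraries in turn ended the call in Vegfc-deficient mice (adjusted p = 0.0571 to 0.162), and leaving out naive control M45 ended that in control mice (adjusted p = 0.0572). The other partner of TLR2, Tlr6, rose in control mice by 1.16 on the log2 scale (standard error 0.34, adjusted p = 0.0154 by edgeR), and in Vegfc-deficient mice its log2 fold change was 0.37 (adjusted p = 0.291).

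Tlr9, the endosomal sensor of unmethylated CpG DNA, was close to the limit of detection in naive hearts. It had 8 and 4 counts in naive control M44 and M45 and 5, 2 and 3 counts in naive Vegfc-deficient M149, M150 and M34, the last 2 at or under the floor. After MI it was at 1.94, 7.34 and 3.27 CPM in control and 2.53, 3.73 and 3.27 CPM in Vegfc-deficient hearts, above all naive libraries (0.242 to 0.714 CPM). Its change on the log2 scale was 2.95 in control (standard error 0.65, adjusted p = 0.00414) and 3.26 in Vegfc-deficient mice (standard error 0.60, adjusted p = 0.00113), both by edgeR, and both sizes rest on few naive counts. MI control M38 was the highest library, and without it the change in control mice was 2.20 (adjusted p = 0.00659 by edgeR).

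Myd88, the adaptor shared by most of these receptors, changed less in size and also separated all MI from all naive libraries. It ran from 25.9 to 39.0 CPM in the 5 naive libraries and from 43.3 to 66.5 CPM in the 6 MI libraries. In control hearts the mean was 32.1 ± 7.21 CPM (SD, n = 2) before and 53.3 ± 8.78 CPM (SD, n = 3) after MI, a log2 fold change of 0.73 (standard error 0.24, adjusted p = 0.0288 by edgeR). This call was lost without naive control M45 (0.52, adjusted p = 0.217) and without MI control M38 (0.53, adjusted p = 0.105). In Vegfc-deficient hearts it was 32.0 ± 6.59 and 56.8 ± 12 CPM (SD, n = 3 each), a log2 fold change of 0.83 (standard error 0.21, adjusted p = 0.00781 by edgeR).

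Cd14, a gene of chromosome 18 (36725067 to 36726798), was at 59.0 and 75.3 CPM in naive control and 74.0, 112 and 188 CPM in MI control hearts, so that the lowest MI library overlapped the higher naive one. It was at 57.2, 56.9 and 34.9 CPM in naive and 72.6, 122 and 128 CPM in MI Vegfc-deficient hearts, without overlap. These are log2 fold changes of 0.89 in control (standard error 0.39, adjusted p = 0.0796) and 1.12 in Vegfc-deficient mice (standard error 0.35, adjusted p = 0.0184), both by edgeR. The latter call was lost without M34, M900 or M913 (adjusted p = 0.0593 to 0.0702), and in control mice the gene was called without M006 (adjusted p = 0.023). Its receptor Tlr4 was at 27.6 and 30.2 CPM in naive control and 32.2, 45.2 and 31.9 CPM in MI control hearts, without overlap. In Vegfc-deficient hearts it was at 38.8, 23.5 and 23.6 CPM before and 29.5, 35.6 and 32.4 CPM after MI, with full overlap. The log2 fold change of Tlr4 was 0.33 in control (95% interval -0.19 to 0.86) and 0.18 in Vegfc-deficient mice (95% interval -0.29 to 0.65), and neither passed edgeR's test (adjusted p = 0.262 and 0.479), although the latter was 0.46 without M149 (adjusted p = 0.0456). Ly96, the subunit MD-2 that completes the TLR4 receptor, had log2 fold changes of 0.028 and -0.42 that did not pass the test either.

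Tlr3, the sensor of double-stranded RNA, was at 17.9 and 16.9 CPM in naive control and 28.4, 37.7 and 21.6 CPM in MI control hearts, without overlap. Its log2 fold change of 0.74 (standard error 0.28, adjusted p = 0.0438 by edgeR) lay just inside the threshold, and 3 of the alternative settings took it outside (adjusted p = 0.0528 to 0.0693), as did leaving out any of 7 libraries in turn. In Vegfc-deficient hearts it was at 16.3, 28.3 and 21 CPM before and 30.7, 29.8 and 22.6 CPM after MI, which overlapped (log2 fold change 0.34, standard error 0.24).

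**Figure D2:**
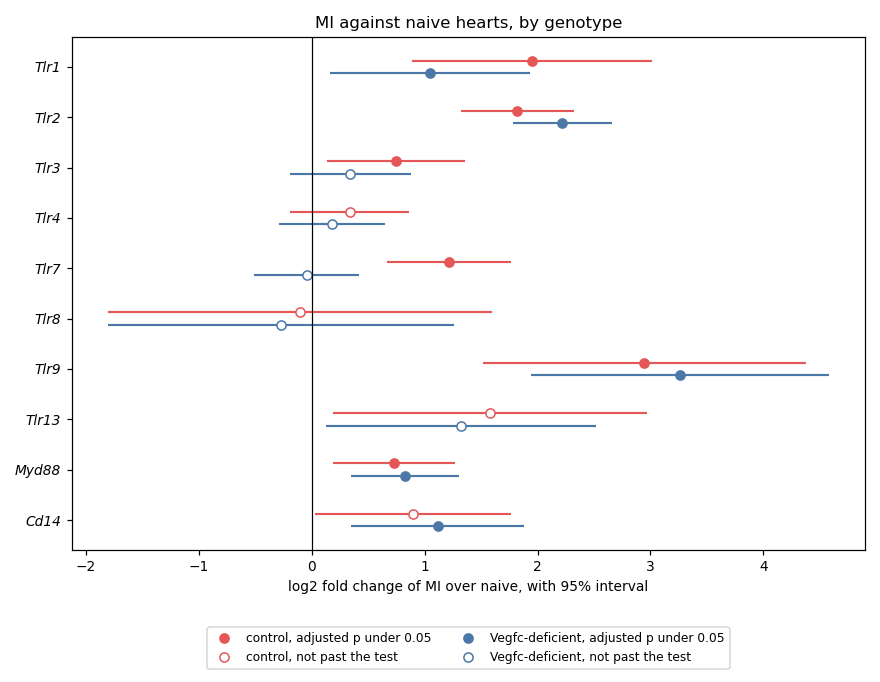
The x axis gives the log2 fold change of MI over naive hearts for each of the 10 genes on the y axis, with 95% intervals, in control (red) and Vegfc-deficient mice (blue). Filled points passed the test, and Tlr2 and Tlr9 lie well to the right of 0 in both genotypes, whereas Tlr7 does so in control mice (1.21) and lies at -0.046 in Vegfc-deficient mice.

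The X-linked receptors Tlr7, Tlr8 and Tlr13 differed from each other, and 2 features of the libraries are given beside their values. Of 496 X-linked genes tested, 32.5% were higher after MI in control mice and 33.3% in Vegfc-deficient mice, against 26.1% and 29.9% of autosomal genes, and 4 genes that escape X inactivation summed to 148 to 182 CPM in the naive and 266 to 317 CPM in the MI libraries. The part of this sex-linked difference in the MI effect on these receptors cannot be told apart from MI. The other feature is the library labelled M149. The log2 fold changes of these receptors with MI in Vegfc-deficient mice are given with and without it.

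Tlr7, a sensor of single-stranded RNA, was at 24.3 and 28.3 CPM in naive control and 47.0, 72.5 and 63.5 CPM in MI control hearts, a log2 fold change of 1.21 (standard error 0.25, adjusted p = 0.00285 by edgeR). In Vegfc-deficient hearts it was at 62.7, 42.7 and 40.4 CPM before and 43.5, 56.0 and 41.6 CPM after MI, with full overlap (log2 fold change -0.046, standard error 0.21), and the value was 0.18 without M149. The naive Vegfc-deficient libraries were thus already at the level of the MI libraries, and all 3 lay above both naive control libraries.

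Tlr8, which lies next to Tlr7 and also senses RNA, had the widest range of the 10 genes among naive Vegfc-deficient libraries. It was at 24.4 and 18.3 CPM in naive control and at 48.8, 6.17 and 5.94 CPM in naive Vegfc-deficient M149, M150 and M34, and it ran from 11.4 to 26.6 CPM over the 6 MI libraries. The log2 fold change with MI was -0.10 in control (standard error 0.77) and -0.27 in Vegfc-deficient mice (standard error 0.69), with adjusted p-values of 0.918 and 0.751 by edgeR. Without M149 the latter was 1.47 (standard error 0.37, adjusted p = 0.00816 by edgeR), so this call rests on whether that library is counted.

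Tlr13 was at 33.7 and 38.4 CPM in naive control and 68.4, 127 and 127 CPM in MI control hearts, and at 79.1, 18.5 and 17.0 CPM in naive and 64.7, 129 and 93.2 CPM in MI Vegfc-deficient hearts. M149 again exceeded the lowest MI library, and the other 4 naive libraries lay below all 6. The log2 fold changes of 1.58 in control (standard error 0.63, adjusted p = 0.0578) and 1.32 in Vegfc-deficient mice (standard error 0.54, adjusted p = 0.0569) fell just outside the threshold of edgeR's test. Without M149 they were 1.58 (adjusted p = 0.00433) and 2.43 (adjusted p = 5.33e-04). M149 is not among the control libraries, but all groups share an estimate of the spread. Leaving out M150 or M34 in place of M149 also brought the call in control mice. With M149 left out, 7 of 10 genes were called higher in control mice, where 27.5% of all genes were, and 8 of 10 in Vegfc-deficient mice, where 29.6% of all genes were.

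**Figure D3:**
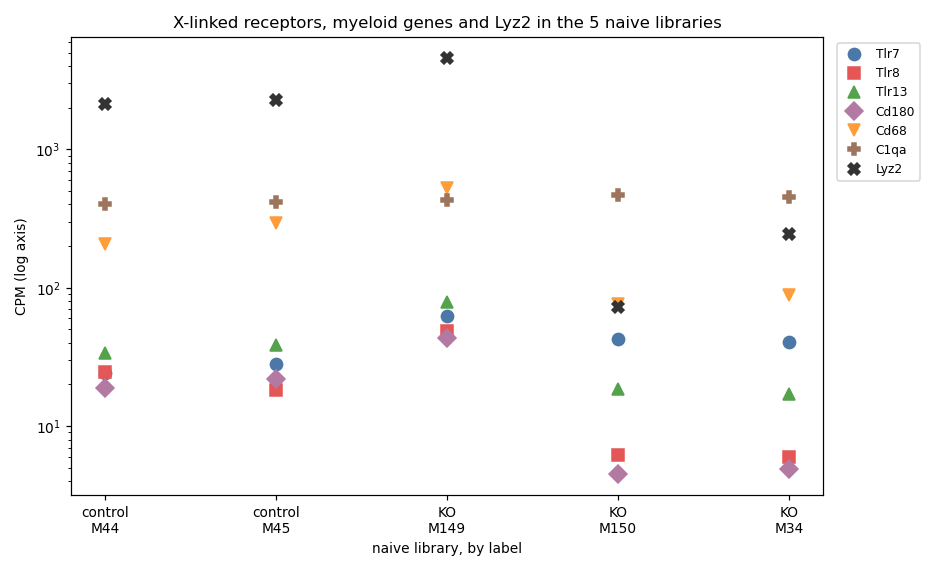
The y axis (log scale) gives CPM in the 5 naive libraries on the x axis, for the X-linked receptors, the receptor-like gene Cd180, the macrophage genes Cd68 and C1qa, and Lyz2. Tlr8, Tlr13, Cd180, Cd68 and Lyz2 are lower in M150 and M34 than in the other 3 libraries, while C1qa stays between 403 and 466 CPM.

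The pattern of Tlr8 and Tlr13 among naive libraries was highest in M149 and lowest in M150 and M34. Cd180 and Cd68, which were named after their values were seen, shared it. With smaller differences, so did Tlr4 and the macrophage markers Adgre1, Csf1r and Mertk, but not all macrophage markers. Adgre1 was at 84.3 and 93.7 CPM in naive control, 135 CPM in M149 and 63.9 and 71.7 CPM in M150 and M34. Csf1r was at 211 and 239 CPM, 332 CPM, and 169 and 177 CPM in the same order. Cd180, a receptor-like relative of TLR4 on B cells and macrophages, was at 18.8 and 21.8 CPM in naive control, 43.5 CPM in M149 and 4.48 and 4.88 CPM in M150 and M34. Cd68, a lysosomal glycoprotein of macrophages, was at 205 and 293 CPM in naive control, 527 CPM in M149 and 75.8 and 88.9 CPM in M150 and M34. C1qa, a complement gene of resident macrophages, was at 403 to 466 CPM in all 5. The macrophage marker Fcgr1 was at 19.3 and 28.0 CPM in naive control and 26.4, 24.6 and 30.4 CPM in M149, M150 and M34. The macrophage markers thus did not move as one. Without M149 the log2 fold change of naive Vegfc-deficient over control hearts was -1.82 for Tlr8 (standard error 0.40, adjusted p = 0.205), -1.02 for Tlr13 (standard error 0.36, adjusted p = 0.579) and -2.11 for Cd180 (standard error 0.51, adjusted p = 0.258), none past edgeR's test.

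Between the genotypes 0 of the 10 genes were called after MI, where 0% of all 14779 genes tested were called by edgeR. At an unadjusted p under 0.05 the numbers were 0 of 10 and 1173, and the DESeq2 Wald test called 0 of the 10 and 51 genes in all. In all 10 genes the 3 MI Vegfc-deficient libraries overlapped the 3 MI control libraries, whereas 12.1% of all genes did not overlap. The log2 fold change of Vegfc-deficient over control MI hearts was 0.12 for Tlr2 (95% interval -0.28 to 0.53), 0.092 for Myd88 (95% interval -0.38 to 0.56) and -0.17 for Tlr4 (95% interval -0.63 to 0.30). The intervals were wider for Tlr8 (-1.75 to 1.27), Tlr13 (-1.34 to 0.996) and Tlr9 (-1.42 to 0.62). Tlr7 had the lowest p of the 10, with a mean of 47.0 ± 7.83 CPM in Vegfc-deficient and 61.0 ± 12.9 CPM in control MI hearts (SD, n = 3 each) and a log2 fold change of -0.38 (standard error 0.21, adjusted p = 0.668 by edgeR).

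In naive hearts 0 of the 10 genes were called between genotypes, where 0% of all genes were called, with 1 of 10 and 499 genes at an unadjusted p under 0.05. The DESeq2 Wald test called 0 of the 10 and 14 genes in all. Without M149, edgeR called 0 of the 10 and 17 genes in all, with 4 of 10 (Tlr2, Tlr7, Tlr8 and Tlr13) and 983 genes at an unadjusted p under 0.05. With all libraries the 1 gene was Tlr7, with a log2 fold change of 0.88 (standard error 0.25, adjusted p = 1 by edgeR), and of 0.66 without M149 (adjusted p = 0.532). Groups did not overlap for Tlr1 and Tlr7, higher in Vegfc-deficient mice, and for Cd14, lower there, which is 3 of 10 genes beside 22.4% of all genes.

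The response to MI differed between genotypes for 0 of 10 genes, where 0% of all genes were called by edgeR's interaction test, with 1 of 10 and 1226 genes at an unadjusted p under 0.05. The DESeq2 Wald test called 0 of the 10 and 49 genes in all. Without M149, edgeR called 0 of the 10 and 1 gene in all, with 3 of 10 (Tlr2, Tlr7 and Tlr8) and 1734 genes at an unadjusted p under 0.05. With all libraries the 1 gene was again Tlr7, whose MI effect was lower in Vegfc-deficient than in control mice by a log2 difference of -1.26 (standard error 0.32, 95% interval -1.97 to -0.54, adjusted p = 0.534 by edgeR), and by -1.03 without M149 (adjusted p = 0.265). A call in control and none in Vegfc-deficient mice for Tlr3 and Tlr7, and the reverse for Cd14, is therefore not a tested difference between the genotypes.

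**Figure D4:**
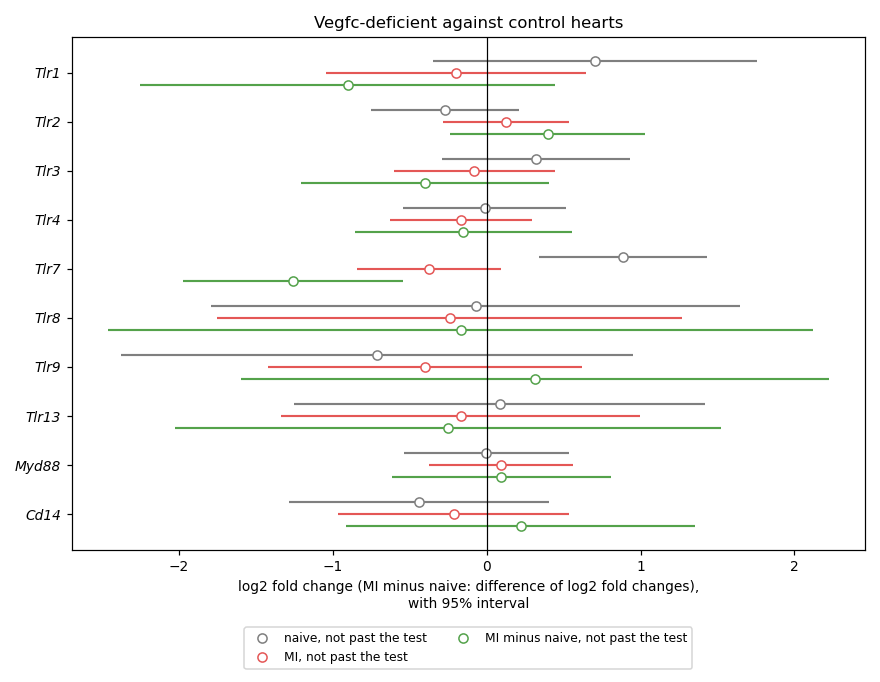
The x axis gives log2 fold changes of Vegfc-deficient over control hearts in naive (grey) and MI mice (red), and the difference between them (green), with 95% intervals, for the 10 genes on the y axis. All points are open, since none passed the test, and the intervals of Tlr7 in naive hearts (0.34 to 1.43) and for the difference (-1.97 to -0.54) lie to one side of 0.

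Macrophages are a main source of these receptors, and their markers rose with MI. The sum of 8 macrophage markers (Adgre1, Csf1r, Cd68, Fcgr1, Mertk, C1qa, C1qb and C1qc) ran from 1654 to 2331 CPM in the naive and from 2263 to 5970 CPM in the MI libraries, and 6 of the 8 were called higher in each genotype. Monocyte markers summed to 10.3 to 46.5 CPM and 100 to 420 CPM, and neutrophil markers to 21 to 112 CPM and 37.5 to 354 CPM in the naive and MI libraries. The share of each change that these cells account for was not tested, and the ratio to macrophage markers is given as a description.

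Tlr2 stood at 6.95 to 9.79 CPM per 1000 CPM of macrophage markers in the naive and 12.2 to 29.5 in the MI libraries. Tlr9 stood at 0.142 to 0.394 and 0.599 to 1.23 on the same scale. For both genes every MI library exceeded every naive one on this sum. Most of the sum came from C1qa, C1qb and C1qc (403, 481 and 381 of 1813 CPM in naive control M44). Whether the separation of any gene holds with other macrophage markers was not tested. Single markers spread widely around their sum. In control mice the log2 fold change was 2.60 for Fcgr1 and 1.79 for Adgre1 but 0.45 for Cd68, beside 1.82 for Tlr2. The monocyte markers Ccr2 and Plac8 rose by 4.62 and 5.22 on the log2 scale. The remaining monocyte marker, Ly6c2, did not rise, with 28.0 and 1.27 CPM in naive control and 7.11, 16.8 and 12.2 CPM in MI control hearts. In Vegfc-deficient hearts Ly6c2 was at 24.6, 2.66 and 24.2 CPM before and 4.17, 9.06 and 5.26 CPM after MI. Tlr4 went the other way on this scale, from 13.7 to 16.7 in the naive to 6.55 to 13.0 in the MI libraries, also without overlap. Myd88 (13.3 to 22.6 and 10.6 to 19.1) and Cd14 (20.3 to 39.6 and 18.7 to 39.96) overlapped between naive and MI libraries, as did Tlr1, Tlr3, Tlr7, Tlr8 and Tlr13 when both genotypes were pooled. Within a genotype, Tlr1 and Tlr13 were higher in MI than in naive control libraries on this scale, Tlr3 and Tlr8 were lower there and Tlr7 was lower in Vegfc-deficient libraries, each without overlap.

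**Figure D5:**
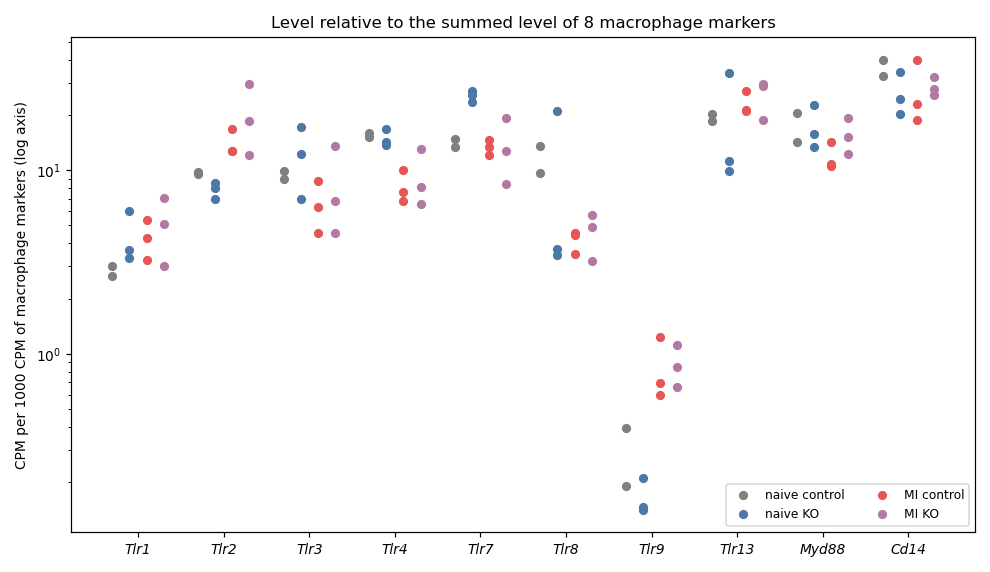
The y axis (log scale) gives the level of each gene per 1000 CPM of the summed level of 8 macrophage markers, with 1 point per library and the groups in colour, where KO is Vegfc-deficient. On this sum, most of which is C1qa, C1qb and C1qc, Tlr2 and Tlr9 are higher in all 6 MI than in all 5 naive libraries. Tlr4 is lower, and the other 7 genes overlap.

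With all 11 libraries, M149 included, most receptors rose and fell together within groups. After the group mean of log2 CPM was taken off, Tlr1, Tlr2, Tlr4, Tlr7, Tlr8, Tlr9 and Tlr13 correlated with each other over the 11 libraries at Pearson's r of 0.62 (Tlr9 with Tlr13) to 0.97 (Tlr8 with Tlr13). Tlr3 stood apart, with r of -0.47 to 0.12 to the other 9 genes, and Cd14 had its highest r with Tlr13 (0.58). Myd88 had r of 0.62 with Tlr9 and of 0.34 or less with the rest. These points share libraries, their depth and their cell content, so r is a description. M149 stood far above M150 and M34 in Tlr8 and Tlr13, and r between the members was not computed without it. The genes most like each member on this measure were Cd274 for Tlr1 (r = 0.99), Hsd17b12 for Tlr2 (0.98), Ube2d1 for Tlr3 (0.98), Gm2a for Tlr4 (0.99), Vac14 for Tlr7 (0.98), Ptprj for Tlr8 (0.99), Ikzf2 for Tlr9 (0.99), Lpxn for Tlr13 (0.99), Fam83e for Myd88 (0.97) and Lig4 for Cd14 (0.97). Without M149, Ube2d1, Ikzf2 and Fam83e stayed in first place for Tlr3, Tlr9 and Myd88, and the first gene changed for the other 7.

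Around these genes, 69 others of the pathway were listed, of which 66 could be tested. After MI, 26 of 66 were higher and 5 lower in control mice, where 26.3% and 24.1% of all genes were, and 30 were higher and 3 lower in Vegfc-deficient mice, where 30.0% and 27.7% were. The counts by role that follow are small and are given beside these shares as a description. Their median log2 fold changes were 0.58 and 0.69. The genotype comparisons and the interaction called 0 of the 66 by edgeR and by DESeq2, with 3 of 66 after MI, 0 of 66 in naive hearts and 1 of 66 for the interaction at an unadjusted p under 0.05.

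Among the other receptors, Tlr11, a sensor of microbial profilin, rose in both genotypes, with 0.272 and 1.07 CPM in naive control and 4.09, 8.79 and 1.54 CPM in MI control hearts (log2 fold change 2.83, standard error 0.82, adjusted p = 0.0156 by edgeR, and 1.97 without M38, adjusted p = 0.0485). Tlr12 was too low to test, with 4.53 CPM in MI control M38 and at most 0.335 CPM in every other library. T cell markers summed to 140 CPM in M38 and to 13.1 to 26.2 CPM in the other MI libraries. Markers of macrophages (5970 CPM), monocytes (420 CPM) and conventional dendritic cells (66.7 CPM) were also highest in M38. Those of neutrophils, B cells and plasmacytoid dendritic cells were highest in other libraries. M38 was also the highest library for Tlr1, Tlr3, Tlr4, Tlr7, Tlr9 and Tlr11. The part of T cells or other infiltrating cells in these values was not tested. Tlr5, the flagellin receptor, was at 0.363 to 3.06 CPM and did not pass the test in either genotype.

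Of 11 accessory and trafficking genes, 5 were higher and 1 lower in control, and 6 higher and 1 lower in Vegfc-deficient mice. The gene that fell was Cd36, a scavenger receptor that joins TLR2 with TLR6 and is also a fatty acid transporter of cardiomyocytes, with 2488 to 2726 CPM before and 263 to 819 CPM after MI (log2 fold change -2.46 in control, standard error 0.40, adjusted p = 9.99e-04 by edgeR). Ly86, the partner of CD180, rose by 2.03 on the log2 scale in control mice (adjusted p = 0.0055), and by 1.21 without M38 (adjusted p = 0.00212), where it was at 390 CPM. Unc93b1, which carries nucleic acid receptors to endosomes, rose by 1.46 in control and 1.17 in Vegfc-deficient mice on the log2 scale (adjusted p = 0.00403 and 0.00442 by edgeR). Without M38, where it was at 356 CPM, its log2 fold change in control mice was 1.085 (adjusted p = 0.0111 by edgeR).

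Downstream of the receptors, Tirap, which bridges TLR2 and TLR4 to MYD88, rose by 0.56 in control and 0.68 in Vegfc-deficient mice on the log2 scale (adjusted p = 0.0188 and 0.00315). Ticam1, the adaptor of TLR3, rose in Vegfc-deficient mice by 0.70 on the log2 scale (adjusted p = 0.0135) and had a value of 0.36 in control mice (adjusted p = 0.204). Among 14 kinases and ubiquitin ligases, 4 were higher and 1 lower in control and 6 were higher in Vegfc-deficient mice. Irak4, the first kinase recruited by MYD88, rose by 0.91 and 1.07 and Ikbke by 1.93 and 1.2 on the log2 scale in control and Vegfc-deficient mice (all adjusted p-values under 0.05 by edgeR). Of 8 transcription factors 4 were higher in control and 3 in Vegfc-deficient mice. Irf5 rose by 1.30 in control and 0.99 in Vegfc-deficient mice on the log2 scale (adjusted p = 0.02 and 0.0305), and Irf7, which acts below TLR7 and TLR9, rose in control mice by 2.15 on the log2 scale (adjusted p = 0.014), with 230 CPM in M38 and 63.2 and 63.3 CPM in the other MI control libraries. Without M38 the change was 1.18 for Irf7 (adjusted p = 0.0256) and 0.98 for Irf5 (adjusted p = 0.0706) on the log2 scale.

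Of 7 inhibitors of the pathway, 1 was higher and 2 were lower in control mice and 1 higher and 1 lower in Vegfc-deficient mice. Socs1 rose in control mice by 1.94 on the log2 scale, with 23.0 CPM in M38 and 5.28 and 6.46 CPM in the other MI control libraries, while Sigirr fell by 0.74 on the log2 scale (adjusted p = 0.0309 and 0.045). Both calls were lost without M38 (adjusted p = 0.11 and 0.0622). Among 8 endogenous ligands, 4 were higher and 1 lower in each genotype, led by the matrix proteins Tnc, with 3.26 to 10.9 CPM before and 165 to 330 CPM after MI, and Fn1, at 160 to 584 CPM and 2285 to 5267 CPM. Of 10 response genes tested, 5 were higher in control and 6 in Vegfc-deficient mice and 0 were lower. Il12b had 0 counts in every naive library and was at 0.915, 4.50 and 0.294 CPM in MI control and 1.06, 1.55 and 0.663 CPM in MI Vegfc-deficient hearts, beside a floor of at most 0.363 CPM in a naive library. Cxcl10 was at 0.181 and 0.892 CPM in naive control and 3.45, 81.9 and 5.98 CPM in MI control hearts, again highest in M38 (log2 fold change 5.81, standard error 1.61, adjusted p = 0.0126 by edgeR). Without M38 its log2 fold change was 3.06 (adjusted p = 0.0106 by edgeR).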

How the data were processed

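Stranded mRNA libraries of 11 left ventricles were sequenced, and for 25006 Ensembl genes (mm10) the authors deposited raw read counts. The submitters' processing notes name cutadapt 1.13, STAR, HTSeq 0.6.1p1 and DESeq2 1.14.1, without roles. GENCODE M21 matched 24991 identifiers. CPM values were computed here with TMM factors. All groups were fitted together with edgeR 4.0.16 (R 4.3.3), using filterByExpr, the quasi-likelihood test and Benjamini-Hochberg adjustment over 14779 genes at 0.05. Replicates are separate mice, and within groups counts differed by at least 8.65 times the counting noise per gene. Alternatives were DESeq2 1.42.0 (size factors, Wald test), no filter, a mean CPM of at least 1, compared groups only, a further minimum of 1 for the absolute log2 fold change, and leaving out each library. The test was first run on simulated counts. Named pathway genes were, per role, the 2 called genes with the largest change in control mice, and the other toll-like receptors. Unc93b1, Ticam1, Ly96, Cd180, Cd68, C1qa, Fcgr1, Adgre1, Csf1r, Mertk, Ccr2, Plac8 and Ly6c2 fall outside that rule and were named after their values were seen. Similarity, by which the nearest gene was named, used Pearson's r of within-group centred log2 CPM (prior count 2). The genes and lists were chosen with earlier results of these data known.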

Additional observations from a re-analysis of the deposited data

How the results depend on the processing

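Of the 10 genes, the number called after MI in control mice was 6, and it ran from 3 (without naive control M45) to 7 as single libraries were left out. In Vegfc-deficient mice it was 5 and ran from 3 (without M34, M900 or M913) to 8 (without M149). Among the other pathway genes 31 were called in control mice, with 15 without M45, 17 without M44, up to 33 in the other fits, and 20 with a minimum of 1 for the absolute log2 fold change. In Vegfc-deficient mice 33 were called, with 24 without M150, M34 or M900, 39 without M149, and 22 with that minimum. Where naive control was left with 1 library, that library was assumed to vary like the other groups. Tlr2 and Tlr9 were called in both genotypes under every alternative. Tlr3 in control mice was lost with DESeq2 size factors, the DESeq2 Wald test and the compared groups only (adjusted p = 0.0693, 0.0565 and 0.0528), and Tlr1 in Vegfc-deficient mice with DESeq2 size factors (adjusted p = 0.0573). Tlr13 was gained by the DESeq2 Wald test (adjusted p = 0.0209 in control and 0.0289 in Vegfc-deficient mice) and by the compared groups only in control mice (adjusted p = 0.00962). When single libraries were left out, calls were lost for Tlr1 (1 library in control and 7 in Vegfc-deficient mice), Tlr3 (7 in control mice), Myd88 (2 in control mice) and Cd14 (3 in Vegfc-deficient mice), and gained for Cd14 (1) and Tlr13 (3) in control mice and for Tlr4 (1), Tlr8 (1) and Tlr13 (2) in Vegfc-deficient mice. The cause was not tested. The level of Tlr4 in MI control hearts was 8.94 CPM per kilobase with the longest transcript in place of all exons.

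Directions turned only for values that had not passed the test, apart from Tlr8 without M149. With each library left out, the log2 fold change with MI ran from -0.44 to 0.17 for Tlr8 in control mice, and in Vegfc-deficient mice from -0.20 to 0.18 for Tlr7 and from -0.72 to 1.47 for Tlr8. Between genotypes after MI it ran from -0.42 to 0.30 for Tlr1, -0.26 to 0.18 for Tlr3, -0.25 to 0.048 for Tlr4, -0.53 to 0.049 for Tlr8, -0.75 to 0.31 for Tlr9, -0.43 to 0.045 for Tlr13, -0.017 to 0.26 for Myd88 and -0.48 to 0.21 for Cd14. In naive hearts it ran from -0.30 to 0.11 for Tlr4, -1.82 to 0.37 for Tlr8, -1.02 to 0.44 for Tlr13 and -0.22 to 0.24 for Myd88, which was 0.000111 with a mean CPM of at least 1. For the interaction it ran from -0.28 to 0.13 for Tlr4, -0.61 to 1.58 for Tlr8, -0.24 to 1.03 for Tlr9, -0.61 to 0.85 for Tlr13, -0.15 to 0.31 for Myd88 and -0.015 to 0.65 for Cd14. No paired analysis was possible because the groups share no replicate numbers. Depth limits Tlr9, with 2 to 8 counts in a naive library.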
